A study of Mus musculus with 6 samples.

Results

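Grb7 and the ERBB receptor system were followed in 6 primary mouse liver cancer cell lines of the C57BL/6 strain. The set comprised 10 of the 53465 genes in the count table, namely the adaptors Grb7, Grb10 and Grb14, the receptors Egfr, Erbb2 and Erbb3, and the ligands Areg, Ereg, Hbegf and Tgfa, and each was matched by symbol. Grb7 was selected on its measured values, 0 counts in every Myc_Utx line, so its difference between the groups is given as a description with no test. The remaining 9 were chosen by function. Of the 10 genes, 9 passed the filter on low counts, and Erbb3 did not pass. Grb7 passed it through the Myc_p53 lines alone, and Areg through the Myc_Utx lines alone.

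The lines fell into 3 labelled Myc_Utx (2A, 2B and 2D) and 3 labelled Myc_p53 (1, 2 and 3). The paper describes the lines as independent and derived from tumours, and whether each came from a separate mouse is not stated. Tumours had been induced in female mice 8 weeks old by injecting plasmids under pressure into the tail vein. All 6 lines share a Myc transposon, delivered together with Cas9 and a guide RNA. The guide targeted Kdm6a, also called Utx, a histone H3K27 demethylase, in Myc_Utx and Trp53, which encodes p53, in Myc_p53. No group with Myc alone was sequenced, so an effect of Kdm6a loss and an effect of p53 loss cannot be told apart. Each tumour was digested and passaged on collagen until other cell types were no longer seen, and the counts come from these cultures, not from tumours.

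ERBB receptors are tyrosine kinases of the cell surface that pair when a ligand binds, and the pair phosphorylates tyrosines on its own tails. EGFR binds amphiregulin, epiregulin, HB-EGF and TGF-alpha, ERBB2 has no known ligand and serves as a partner, and ERBB3 binds neuregulins and has little kinase activity. The ligands are made as membrane-anchored precursors that proteases release. GRB7, GRB10 and GRB14 form a family of adaptors without catalytic activity that dock on phosphorylated receptors through an SH2 domain. GRB7 binds ERBB2, and its gene lies next to Erbb2 in mouse and human, where both are often amplified together in breast cancer. In liver, EGFR ligands drive hepatocyte division during regeneration.

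Total counts ranged from 4656103 to 6937497 per library, at which 3 counts equal 0.428 to 0.668 CPM. CPM are counts scaled to library size and corrected for library composition by TMM. Positive log2 fold changes stand for higher levels in Myc_Utx. Of 11510 genes tested with edgeR's quasi-likelihood test, 14.7% passed a Benjamini-Hochberg adjusted p of 0.05, 6.99% higher and 7.69% lower in Myc_Utx, and 42.0% did not overlap between the groups. As a check of the labels, Trp53 had 1475, 1578 and 1239 counts in Myc_Utx and 205, 186 and 251 in Myc_p53 (log2 fold change 3.08, SE 0.11, adjusted p = 0.000488 in edgeR). Kdm6a had 199, 244 and 220 counts in Myc_Utx and 440, 348 and 298 in Myc_p53, with overlapping CPM (log2 fold change -0.39, SE 0.22, adjusted p = 0.243), and an edited gene may still be transcribed. Hepatocyte markers were scarce in both groups, since 10 of them summed to 2.00 to 8.80 CPM in Myc_Utx and 6.12 to 21.5 CPM in Myc_p53, and Cps1 had at most 2 counts in any line.

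Line Myc_p53 2 stood apart from Myc_p53 1 and 3 in several epithelial genes. The keratin Krt8 had 61, 200 and 0 counts in Myc_Utx and 4537, 83 and 3130 in Myc_p53, and Krt18 had 48, 256 and 0 against 2984, 108 and 2208. For both keratins and for Epcam, Myc_p53 2 lay within the Myc_Utx range. For the other epithelial markers it did not. Krt7, Krt19, Cldn4 and Cdh1 lay above that range in Myc_p53 2, and Sox9 and Spp1 lay below it. Sox9 was close to Myc_p53 3, at 20.6 against 21.0 CPM. Results for the members, and the counts over the whole pathway, are given both ways where they changed without this line. Counts for single pathway lists and for markers are given with all lines only.

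Areg and Grb14, the 2 members that rose in Myc_Utx, have start sites in RefSeq (GRCm38.p6), and the 300 bases around them are shown because these are the genes whose level passed the test. In Areg, on the plus strand at chr5:91139349-91139648, the first run of capitals marks a cAMP response element (TGACGTCA) starting 61 bases before the start site and the second a TATA box (TATAAA) starting 31 bases before it. In Grb14, on the minus strand at chr2:65022717-65023016, capitals mark 5 GC boxes, each read as CCGCCC and thus GGGCGG on the opposite strand, and this start site lies inside the gene as the count table bounds it.
Areg: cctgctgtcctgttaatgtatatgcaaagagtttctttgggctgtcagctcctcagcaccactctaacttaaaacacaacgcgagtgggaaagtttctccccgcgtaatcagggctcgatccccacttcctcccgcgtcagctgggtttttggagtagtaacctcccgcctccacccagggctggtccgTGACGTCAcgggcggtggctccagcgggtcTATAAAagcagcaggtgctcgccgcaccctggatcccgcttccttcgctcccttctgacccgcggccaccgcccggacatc
Grb14: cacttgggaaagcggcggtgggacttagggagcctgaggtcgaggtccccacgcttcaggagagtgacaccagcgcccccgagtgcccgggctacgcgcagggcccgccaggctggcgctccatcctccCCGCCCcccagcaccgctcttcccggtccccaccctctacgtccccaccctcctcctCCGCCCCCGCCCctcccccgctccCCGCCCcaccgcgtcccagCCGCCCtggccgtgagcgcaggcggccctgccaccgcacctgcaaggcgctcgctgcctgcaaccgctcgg
Both strands were searched in 32851 promoter windows of the same length. The cAMP response element was found in 1.79% of windows, the TATA box in 13.6% and the GC box in 35.7%. Of the 6 members with a RefSeq window (Grb10, Grb14, Egfr, Erbb2, Areg and Tgfa), Areg alone held the cAMP response element and the TATA box, while GC boxes were found in Areg, Egfr, Grb10, Grb14 and Tgfa. These matches describe the letters of the windows, and binding was not measured.

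Grb7 (ENSMUSG00000019312, chromosome 11 of GRCm38, 98446394 to 98455373) was transcribed in the Myc_p53 lines and without a single count in the Myc_Utx lines. It had 0, 0 and 0 counts in Myc_Utx and 370, 31 and 216 counts in Myc_p53, or 58.5, 5.75 and 30.8 CPM with a mean of 31.7 ± 26.4 CPM (SD, n = 3). Against a floor of 3 counts in each Myc_Utx line, a mean of 0.609 CPM, the level was at least 52.0-fold lower in Myc_Utx. Taken line by line, Myc_p53 1 lay 96-fold, Myc_p53 3 lay 50.5-fold and Myc_p53 2 lay 9.43-fold above that floor. The spread within Myc_p53 was thus wide, with a ratio of 10.2 between the highest and the lowest line, and leaving out 1 Myc_p53 line at a time moved the bound between 30.0-fold without Myc_p53 1 and 73.3-fold without Myc_p53 2. In bulk cultures, fewer cells that express a gene and less RNA per cell cannot be told apart.

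**Figure D1:**
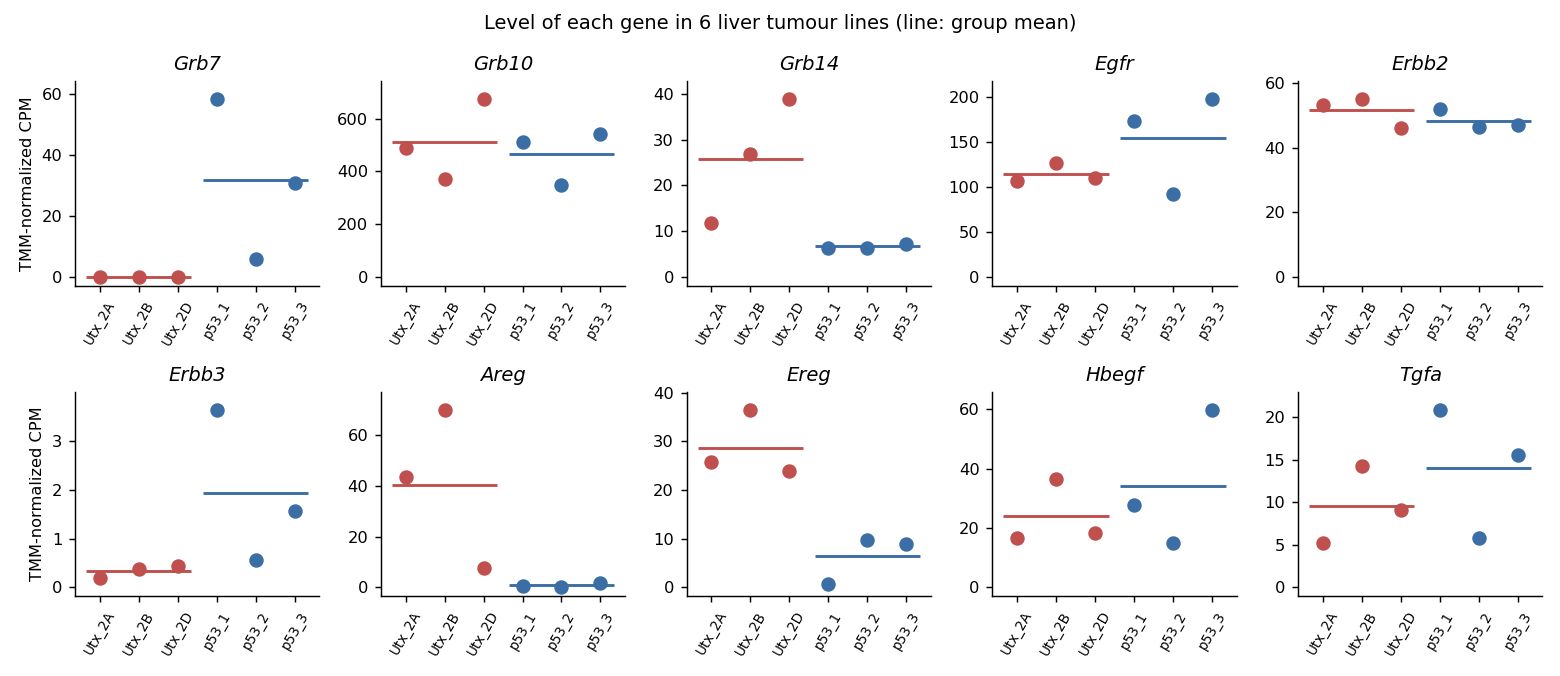
TMM-normalized CPM (vertical axes, linear, each panel with its own range) of the 10 genes in the 3 Myc_Utx lines (red) and the 3 Myc_p53 lines (blue), where each point is 1 line and each horizontal bar the group mean. Grb7 sits at 0 in all Myc_Utx lines, Areg and Grb14 lie higher in every Myc_Utx line than in any Myc_p53 line, and Erbb2 stays between 46.3 and 55.2 CPM.

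Grb7 was not the sole gene with this pattern. In all, 4373 genes had 0 counts in every Myc_Utx line and at least 1 count in Myc_p53, 62 of these had more than 3 counts in every Myc_p53 line, and Grb7 had the highest mean CPM in Myc_p53 of the 4373. The 5 next were Clca3b (27.7 CPM), Sult1c2 (23.8 CPM), Cytip (21.8 CPM), Scn9a (16.9 CPM) and Dclk3 (16.4 CPM). Sult1c2 encodes a sulfotransferase and Scn9a a voltage-gated sodium channel. In each of these 5, as in Grb7, Myc_p53 2 was the lowest Myc_p53 line, with 2 counts of Clca3b, 8 of Sult1c2, 8 of Cytip, 14 of Scn9a and 7 of Dclk3. Among the members, Erbb3 came closest to the selection without meeting it, at 1, 2 and 2 counts in Myc_Utx.

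Genes around Grb7 did not share its profile. Erbb2 starts 33.9 kb before Grb7 on the same strand and had 51.7 ± 4.72 CPM in Myc_Utx and 48.5 ± 3.17 CPM in Myc_p53 (SD, n = 3 each). Mien1, which starts 7.40 kb from the Grb7 start on the opposite strand, had 15.6 ± 3.59 and 12.1 ± 0.708 CPM (log2 fold change 0.37, adjusted p = 0.310). Of the 8 protein-coding genes other than Grb7 that start within 100 kb, 5 were tested and 0 passed the adjusted p in either direction by edgeR, with log2 fold changes from -0.38 for Pgap3 to 2.11 for Ppp1r1b, a phosphatase inhibitor (adjusted p = 0.0615). Ppp1r1b was the 1 of the 5 with an unadjusted p under 0.05 and the 1 that DESeq2 called. The remaining 3, Tcap, Pnmt and Ikzf3, had at most 1 count in any line. Across 21 mouse orthologues of the human 17q12 region around ERBB2, 11 were tested, 0 passed by edgeR (1 at an unadjusted p under 0.05 and 1 by DESeq2, both times Ppp1r1b), and their median log2 fold change was -0.29 beside -0.01 over all genes tested. No other gene in the count table overlaps Grb7.

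**Figure D2:**
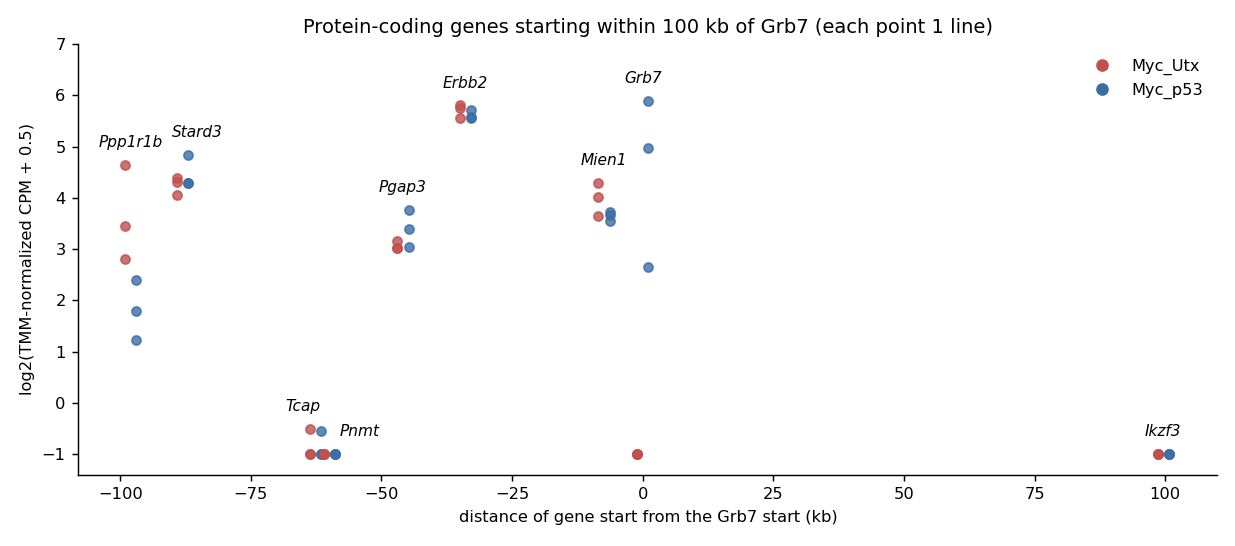
Level, as log2(TMM-normalized CPM + 0.5), of each protein-coding gene that starts within 100 kb of the Grb7 start, against its distance in kb, where each point is 1 line (red Myc_Utx, blue Myc_p53) and a value of -1 stands for 0 counts. The groups separate fully at Grb7 and at Ppp1r1b, while Erbb2 varies little over the 6 lines.

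The 5 genes most like Grb7 were ranked by Pearson's r of log2(CPM + 0.5) over the 6 lines among the 9484 tested genes that averaged 50 counts or more. They were Igf2bp3 (r = 0.998), Tnip1 (0.998), Snx27 (0.998), Pds5a (0.996) and Csf1r (0.995). Since 3 of the 6 points share a Grb7 count of 0, r rests on the order of the Myc_p53 lines and on the gap between groups, and it is given as a description. Igf2bp3, an RNA-binding protein of fetal tissues, had 35.3, 35.2 and 34.5 CPM in Myc_Utx and 81.9, 57.6 and 72.2 CPM in Myc_p53. Csf1r, the macrophage colony-stimulating factor receptor, had 0, 1 and 0 counts in Myc_Utx and 259, 39 and 243 in Myc_p53, an order of lines like that of Grb7.

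Macrophage markers were lower in Myc_Utx for 5 of 7 tested, beside 7.69% of all genes tested. At most 1 marker of any other cell type passed the test. The 5 (Csf1r, Lyz2, C1qa, C1qb and C1qc) had at most 5 counts in any Myc_Utx line. They passed the filter on low counts through the Myc_p53 lines alone, so their calls are given as a description. Of 10 macrophage markers, 1, Cd14, was higher in Myc_Utx. The 10 summed to 37.6 to 56.0 CPM in Myc_Utx and 58.8 to 129.8 CPM in Myc_p53. Most of the Myc_Utx sum was Cd14, at 53.25, 34.27 and 32.29 CPM in 2A, 2B and 2D. The leukocyte marker Ptprc had at most 3 counts in any line, the macrophage marker Adgre1 had 0 counts in Myc_Utx and at most 11 in Myc_p53, and the Kupffer cell marker Clec4f was at 0 in all 6 lines. Of 9 biliary and epithelial markers, 6 were tested and 1 of these, the cadherin Cdh1, was lower in Myc_Utx, with at most 2 counts there. Cdh1 also passed the filter on low counts through the Myc_p53 lines alone, so its call is given as a description. The 9 summed to 510.6 to 1527 CPM in Myc_Utx, 192.0 CPM in Myc_p53 2 and 2266 to 2582 CPM in Myc_p53 3 and 1. Most of the Myc_Utx sum was Spp1, at 611.1, 1362 and 448.7 CPM in 2A, 2B and 2D. Spp1 did not differ detectably between the groups (log2 fold change 0.21, adjusted p = 0.8835 in edgeR). Cldn4 was at 0 in every Myc_Utx line and had at most 10 counts in Myc_p53. The 8 fibroblast and stellate markers summed to 1953 to 2692 CPM in Myc_Utx and 41.7 to 3164 CPM in Myc_p53, with the collagen gene Col3a1 at 65 counts in Myc_p53 1 and 14680 in Myc_p53 2 and Lrat at 0 in all lines. The 5 fetal liver markers summed to 15.6 to 112.5 CPM in Myc_Utx and 64.1 to 339.0 CPM in Myc_p53. Of these, 3 were tested and 1, Igf2, was lower in Myc_Utx, beside 7.69% of all genes tested. Igf2 had at most 8 counts there and passed the filter through the Myc_p53 lines alone, so its call is a description too. The 6 endothelial markers summed to at most 1.42 CPM. The part of these cell type markers in the Grb7 result was not tested.

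**Figure D3:**
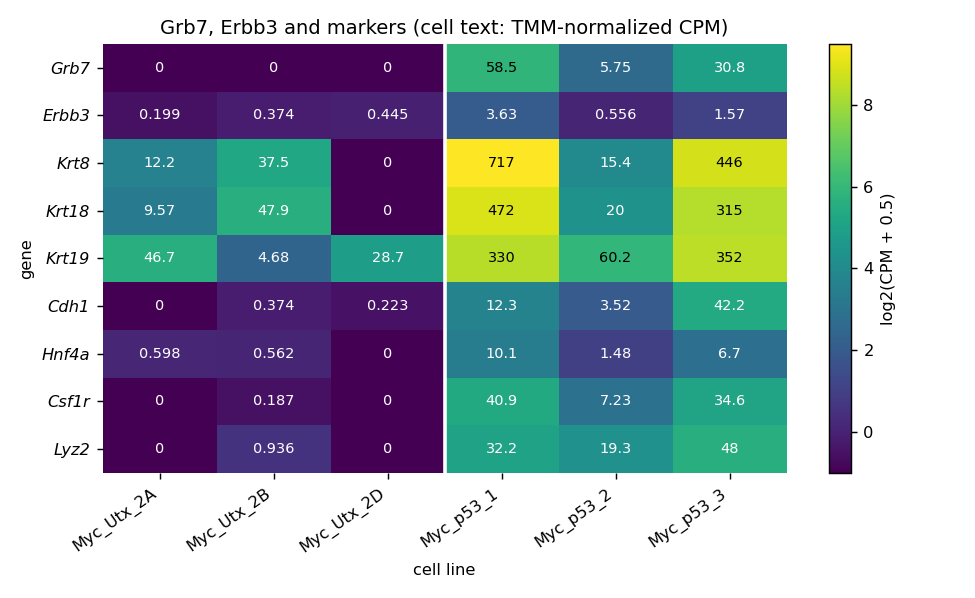
Levels of Grb7, Erbb3, 5 epithelial or hepatocyte genes and 2 macrophage genes (rows) in the 6 lines (columns), with TMM-normalized CPM written in each cell and the colour showing log2(CPM + 0.5). Grb7, Erbb3, Krt8, Krt18, Hnf4a and Csf1r run 1, 3, 2 from high to low in Myc_p53. Every marker shown had a lower mean in Myc_Utx, whereas others of these lists, such as Apoa1, Sox9, Spp1 and Cd14, had a higher mean there.

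The relatives of Grb7 followed other patterns. Grb14 (ENSMUSG00000026888, chromosome 2, 64912476 to 65024987), an inhibitor of the insulin receptor, rose in Myc_Utx. It had 11.8, 26.8 and 39.0 CPM in Myc_Utx 2A, 2B and 2D and 6.32, 6.30 and 7.27 CPM in Myc_p53 1, 2 and 3. The groups did not overlap, and the Myc_p53 lines were nearly level while the Myc_Utx lines spread 3.31-fold. The log2 fold change was 1.96 (SE 0.44, adjusted p = 0.0364 in edgeR), a 3.88-fold higher level. The call held in all 6 alternatives that used every line and was lost in each of the 6 fits without 1 line, where the log2 fold change ran from 1.55 to 2.32 and the adjusted p from 0.0614 to 0.107.

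Grb10 (ENSMUSG00000020176, chromosome 11, 11930508 to 12038683), an imprinted inhibitor of insulin and IGF receptor signalling and a substrate of mTORC1, was the most abundant adaptor and did not differ detectably. It had 487.2, 371.1 and 675.8 CPM in Myc_Utx and 510.9, 349.2 and 541.5 CPM in Myc_p53. The ranges overlapped, and the log2 fold change was 0.13 (SE 0.26, adjusted p = 0.750), with an unadjusted 95% interval from -0.50 to 0.76. Its direction turned without Myc_Utx 2D (-0.10) and without Myc_p53 2 (-0.04). Of 4 genes that neighbour Grb10, 2 were tested. Of these, 1 was lower in Myc_Utx, beside 7.69% of all genes tested. It was Cobl, an actin nucleator, at 1.29 ± 0.143 against 34.9 ± 31.9 CPM (SD, n = 3 each). Cobl passed the filter on low counts through the Myc_p53 lines alone, so its call is given as a description. Its log2 fold change was -4.75 (adjusted p = 0.0269 in edgeR) and -3.77 without Myc_p53 1 (adjusted p = 0.0411). The call was lost in 4 of the 6 fits without 1 line.

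On a scale per kilobase of the listed transcript length, which allows genes to be compared, Grb10 made up most of the summed adaptor level in every line. Its share was 97.0%, 91.6% and 93.2% in Myc_Utx and 75.5%, 93.7% and 85.4% in Myc_p53. Grb7 held 23.3%, 4.16% and 13.1% in Myc_p53 1, 2 and 3, and Grb14 held 1.18% to 2.14% there and 2.96% to 8.36% in Myc_Utx. Myc_p53 1 was thus the line in which Grb7 came closest to Grb10, at 17.4 against 56.2 CPM per kb. Both relatives of the family by the MIG10 domain, Raph1 and Apbb1ip, were tested and 0 passed by edgeR, with 1 lower by an unadjusted p under 0.05 and 1 by DESeq2.

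No receptor gene passed the test with all lines, 0 of 2 tested by edgeR, by an unadjusted p under 0.05 and by DESeq2. Erbb2 (ENSMUSG00000062312, chromosome 11, 98412470 to 98437716) had 53.5, 55.2 and 46.3 CPM in Myc_Utx and 52.2, 46.3 and 47.1 CPM in Myc_p53. Its log2 fold change was 0.09 (SE 0.14, adjusted p = 0.667), and the unadjusted 95% interval ran from -0.24 to 0.42. Mien1 overlaps Erbb2 on the opposite strand, and because the strand setting of the counting was not given in the sources used here, reads from the overlap cannot be told apart.

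Egfr (ENSMUSG00000020122, chromosome 11, 16752203 to 16918158) had 106.7, 126.2 and 109.6 CPM in Myc_Utx and 173.2, 91.8 and 197.8 CPM in Myc_p53. Myc_p53 1 and 3 lay above and Myc_p53 2 below all Myc_Utx lines, and the log2 fold change was -0.43 (SE 0.28, adjusted p = 0.309). Without Myc_p53 2 it was -0.70 (SE 0.13, adjusted p = 0.0272 in edgeR), so the call turned on this line. In the other fits without 1 line the adjusted p ran from 0.377 to 0.644. With all lines and transcript length in the model, the log2 fold change was -0.16 (adjusted p = 0.708).

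Erbb3 (ENSMUSG00000018166, chromosome 10, 128567523 to 128589652) was barely transcribed, with 1, 2 and 2 counts in Myc_Utx and 23, 3 and 11 in Myc_p53. It was removed by the filter on low counts. In the fit with no filter its log2 fold change was -2.42 (SE 0.86, adjusted p = 0.128), and all Myc_Utx lines lay at or under 3 counts. Erbb4, the fourth receptor, had 0, 1 and 0 counts in Myc_Utx and 8, 0 and 7 in Myc_p53 and was not tested. Per kilobase, Egfr made up 47.4% to 65.1% and Erbb2 33.7% to 52.1% of the summed receptor level over the 6 lines, while Erbb3 made up 0.168% to 2.32% and Erbb4 at most 0.393%.

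Areg and Ereg had the largest log2 fold changes of the 8 tested members other than Grb7, while Hbegf and Tgfa overlapped between the groups. Areg (ENSMUSG00000029378, chromosome 5, 91139599 to 91148432), which encodes amphiregulin, had 218, 373 and 35 counts in Myc_Utx and 4, 2 and 12 in Myc_p53. These equal 43.5, 69.8 and 7.79 CPM against 0.632, 0.371 and 1.71 CPM. The lowest Myc_Utx line, 2D, was above the highest Myc_p53 line, and the Myc_Utx lines spread 8.96-fold.

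The log2 fold change of Areg was 5.40 (SE 0.97, adjusted p = 0.0227 in edgeR), a fitted level 42.3-fold higher in Myc_Utx. The unadjusted 95% interval ran from 3.07 to 7.74 on the log2 scale. Areg passed the filter on low counts through the Myc_Utx lines alone. Its Myc_p53 counts of 4, 2 and 12 lie near the floor of 3, so the size of the fold is uncertain. Areg passed the test in all 5 alternatives with every line that kept it, and was removed where at least 10 counts in every line were required. It passed without Myc_Utx 2D (5.91, adjusted p = 0.0357) and without Myc_p53 2 (5.07, adjusted p = 0.0417), and was lost in the 4 other fits without 1 line, with adjusted p from 0.0581 to 0.0721 and log2 fold changes from 4.78 without Myc_Utx 2B to 6.25 without Myc_p53 3.

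Ereg (ENSMUSG00000029377, chromosome 5, 91074622 to 91093646), which encodes epiregulin, lies 65.0 kb before Areg on the same strand. It had 25.7, 36.5 and 23.8 CPM in Myc_Utx and 0.632, 9.64 and 8.98 CPM in Myc_p53. The groups did not overlap, yet the log2 fold change of 2.16 (SE 0.80) did not pass, at an adjusted p of 0.110 in edgeR. It passed with DESeq2's Wald test (2.14, adjusted p = 0.0342) and without Myc_p53 1 (1.62, SE 0.27, adjusted p = 0.0387), the line with 4 Ereg counts. Epgn, the next ligand gene in the same row, had at most 3 counts in any line.

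Hbegf (ENSMUSG00000024486, chromosome 18, 36504929 to 36515805) had 16.8, 36.5 and 18.5 CPM in Myc_Utx and 27.7, 15.0 and 59.9 CPM in Myc_p53. Tgfa (ENSMUSG00000029999, chromosome 6, 86195223 to 86275719) had 5.19, 14.2 and 9.13 CPM in Myc_Utx and 20.9, 5.75 and 15.5 CPM in Myc_p53. The groups overlapped for both ligands. Hbegf had a log2 fold change of -0.52 (SE 0.55, adjusted p = 0.537), which turned to 0.16 without Myc_p53 3. Tgfa had a log2 fold change of -0.56 (SE 0.56, adjusted p = 0.506).

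**Figure D4:**
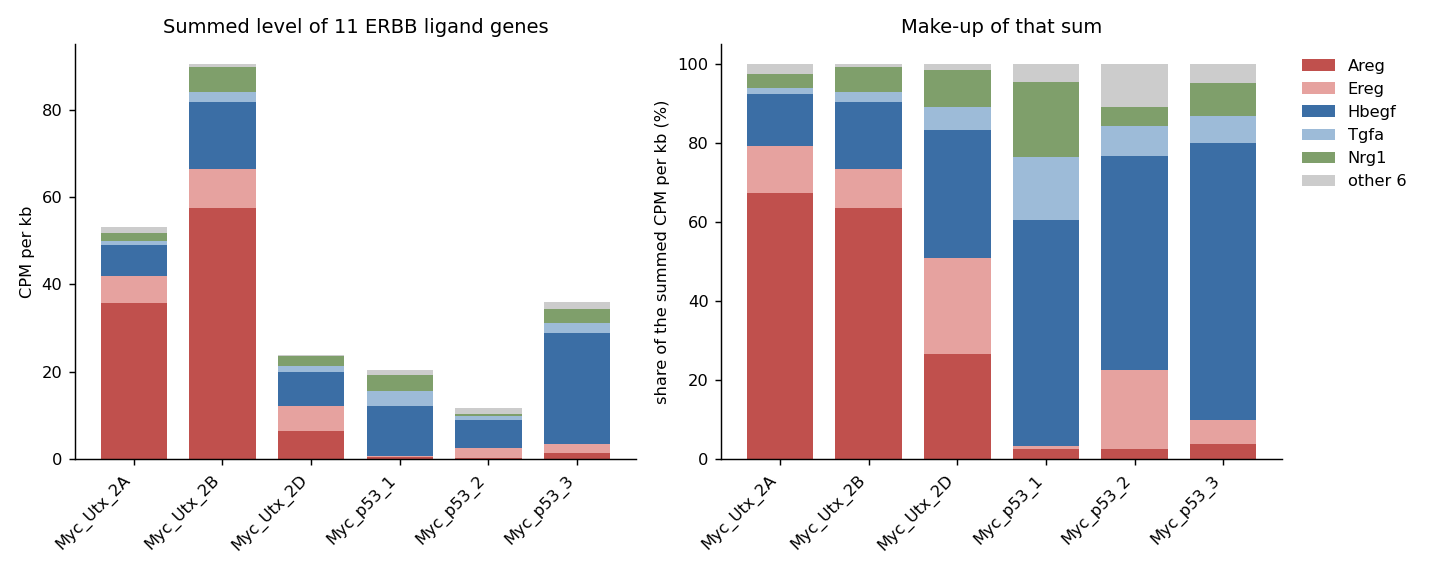
Summed level of 11 ERBB ligand genes in CPM per kb (left) and the share of each in that sum in percent (right) for the 6 lines, as stacked bars that start at 0. Areg forms 26.7% to 67.4% of the sum in Myc_Utx and 2.56% to 3.91% in Myc_p53, where Hbegf forms 54.2% to 70.1%.

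Per kilobase, the shares of Areg and Hbegf in the ligand pool did not overlap between the groups, whereas the size of the pool did. Over 11 ligand genes the sum was 53.1, 90.5 and 24.0 CPM per kb in Myc_Utx and 20.4, 11.7 and 36.0 CPM per kb in Myc_p53, with Myc_Utx 2D below Myc_p53 3. Areg made up 67.4%, 63.6% and 26.7% of the sum in Myc_Utx 2A, 2B and 2D against 2.56%, 2.61% and 3.91% in Myc_p53. Hbegf made up 13.3%, 17.01% and 32.5% in Myc_Utx and 57.3%, 54.2% and 70.1% in Myc_p53, where it was the first ligand in every line. In Myc_Utx 2D, Hbegf was also first, ahead of Areg. The shares are parts of 1 sum, so a larger share of Areg goes with a smaller share of Hbegf. The level of Hbegf itself overlapped between the groups. It was 7.06, 15.39 and 7.79 CPM per kb in Myc_Utx and 11.65, 6.33 and 25.24 CPM per kb in Myc_p53. These shares and levels depend on the listed transcript lengths.

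Egf, Btc, Epgn and the neuregulins were scarce apart from Nrg1, a ligand of ERBB3 and ERBB4. Nrg1 had 19.4, 59.7 and 22.9 CPM in Myc_Utx and 40.0, 5.56 and 31.8 CPM in Myc_p53 (log2 fold change 0.40, SE 0.74, adjusted p = 0.729). Egf was lower in Myc_Utx, at 1.09 ± 0.271 against 3.28 ± 0.881 CPM (SD, n = 3 each), with a log2 fold change of -1.57 (adjusted p = 0.0460) that passed in 2 of 5 alternatives with every line and in 0 of the 6 fits without 1. Btc, Epgn, Nrg2, Nrg3, Nrg4 and Erbb4 were not tested because of low counts, and Nrg3 had 0 counts in all lines.

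In all, 2 of the 8 tested members other than Grb7 were called higher in Myc_Utx beside 6.99% of all genes tested, and 0 were called lower by edgeR beside 7.69%. Of these 2, Areg entered the test through the Myc_Utx lines alone. Without Myc_p53 2, edgeR called 1 member higher (Areg) and 1 lower (Egfr), beside 836 higher and 1118 lower of the 11927 genes tested in that fit. With all lines, none of the 8 had a negative fold change with an unadjusted p under 0.05, and DESeq2 called 0 lower as well. Of the 8, 3 did not overlap between groups (Grb14, Areg and Ereg) beside 42.0% of all genes tested. With 3 lines against 3, an exact two-sided permutation test of a single gene cannot go below p = 0.1, which Grb14, Erbb3, Areg and Ereg reached.

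Line 2 was the lowest Myc_p53 line for 9 of the 10 members, all but Ereg, while it was the lowest for 37.3% of all genes tested. Some of these gaps were small. Grb14 had 6.30 CPM there against 6.32 in Myc_p53 1, and Erbb2 had 46.3 against 47.1 in Myc_p53 3. Areg and Erbb3 lay near the floor in this line, at 2 and 3 counts. In Myc_Utx, line 2B was the highest for 6 of the 8 members above 3 counts, namely Egfr, Erbb2, Areg, Ereg, Hbegf and Tgfa, while it was the highest for 31.95% of all genes tested. Line 2D was the lowest for Erbb2, Areg and Ereg and the highest for Grb10 and Grb14. Among 19 tested MAPK output and feedback genes, such as Dusp6 and Etv4, which ERK signalling induces, Myc_Utx 2D was the lowest Myc_Utx line for 18, beside 33.2% of all genes tested, and Myc_Utx 2A was the highest for 13 and Myc_Utx 2B for 5. No gene of that list passed the test between the groups (0 of 19 by edgeR, 1 by an unadjusted p under 0.05 and 1 by DESeq2, both lower), and the median log2 fold change was 0.13.

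The other genes of the pathway comprised 157 symbols in 11 lists, of which 156 were in the table and 123 were tested. Of these 123, 4 were higher and 8 lower in Myc_Utx, 9.76% together beside 14.7% of all genes tested, and the median log2 fold change was -0.17. Over all 11510 genes tested, 4026 had an unadjusted p under 0.05, and DESeq2 called 1268 higher and 1514 lower. The counts of each list below stand beside these. Of the 123, 44 did not overlap between groups, beside 42.0% of all genes tested. Without Myc_p53 2 the pathway held 5 higher and 14 lower genes, and in the other fits without 1 line it held fewer. Of the 12 called genes, Irs2 kept its call in 4 and Hras in 3 of the 6 fits without 1 line, and the other 10 kept it in 0 to 2. Egf and Cobl of these 12 passed the filter on low counts through the Myc_p53 lines alone, so their calls are given as a description.

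Among 23 adaptors and effectors that act at the receptor, 0 rose and 2 fell by edgeR, 8.70% beside 14.7% of all genes tested. Gab1, a docking protein for PI3K and SHP2 below EGFR, had 23.1 ± 2.32 CPM in Myc_Utx and 45.8 ± 4.98 CPM in Myc_p53 (SD, n = 3 each), a log2 fold change of -0.99 (SE 0.16, adjusted p = 0.0188). Irs2, the insulin receptor substrate of liver, had 37.6 ± 4.38 and 121.3 ± 18.5 CPM, a log2 fold change of -1.69 (SE 0.17, adjusted p = 0.0118). Of the 23, 19 had a log2 fold change below 0, beside 50.8% of all genes tested, and the median was -0.39. This share was not matched for transcript length, which ran against log2 fold change over all genes tested (Spearman's rho -0.25). At an unadjusted p under 0.05, 0 were higher and 7 lower, and DESeq2 called 0 higher and 5 lower.

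The PI3K and AKT arm had 2 of 11 tested genes higher and 0 lower by edgeR, 18.2% beside 14.7% of all genes tested. It had 4 higher and 3 lower at an unadjusted p under 0.05, and 4 and 2 by DESeq2. Akt1 (log2 fold change 0.48, adjusted p = 0.0274) and Akt2 (0.54, adjusted p = 0.0227), both AKT kinases, were higher in every Myc_Utx line than in any Myc_p53 line. In the RAS and MAPK arm, 2 of 16 were higher and 0 lower by edgeR, 12.5% beside the same 14.7%. At an unadjusted p under 0.05, 5 were higher and 4 lower, and by DESeq2 4 and 4. Hras had 90.3, 104.5 and 115.3 CPM in Myc_Utx and 34.9, 25.6 and 48.6 CPM in Myc_p53 (log2 fold change 1.50, SE 0.25, adjusted p = 0.0195), and Map2k2, which encodes the kinase MEK2, was higher by 0.74 on the log2 scale (adjusted p = 0.0323).

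Of 13 tested feedback inhibitors of ERBB receptors, 0 rose and 2 fell by edgeR, 15.4% beside 14.7% of all genes tested. Both at an unadjusted p under 0.05 and by DESeq2, 0 rose and 4 fell. Ptprj, a receptor phosphatase, had 24.7 ± 7.35 CPM in Myc_Utx and 82.5 ± 35.8 CPM in Myc_p53 (log2 fold change -1.74, adjusted p = 0.0415). Cbl, the ubiquitin ligase that targets activated EGFR, had 99.96 ± 2.81 and 159.2 ± 12.9 CPM (log2 fold change -0.67, adjusted p = 0.0185). Both calls were lost when transcript length was added to the model, where the log2 fold change was -1.55 for Ptprj (adjusted p = 0.0564) and -0.39 for Cbl (adjusted p = 0.0538). Across the 11510 genes tested, which are not independent replicates, Spearman's rho between transcript length and log2 fold change was -0.25. Of 7 tested genes of ligand shedding, among them the protease gene Adam17, 0 passed by edgeR, with 1 higher at an unadjusted p under 0.05 and 0 by DESeq2, and with a median log2 fold change of -0.10.

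Among 25 other receptor tyrosine kinases, 17 were tested, and 0 rose and 2 fell by edgeR, 11.8% beside 14.7% of all genes tested. At an unadjusted p under 0.05, 0 rose and 6 fell, and by DESeq2 0 rose and 5 fell. Fgfr3 had 3.09 ± 0.993 CPM in Myc_Utx and 29.3 ± 20.3 CPM in Myc_p53 (log2 fold change -3.24, SE 0.57, adjusted p = 0.0218). Without Myc_p53 3 the log2 fold change of Fgfr3 was -2.51 and the call was lost (adjusted p = 0.0530), as it was without each Myc_Utx line. Igf1r, the IGF-1 receptor, had 137.7 ± 10.6 and 260.3 ± 51.1 CPM (log2 fold change -0.92, adjusted p = 0.0240) and its call was also lost with transcript length in the model (-0.58, adjusted p = 0.0706).

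**Figure D5:**
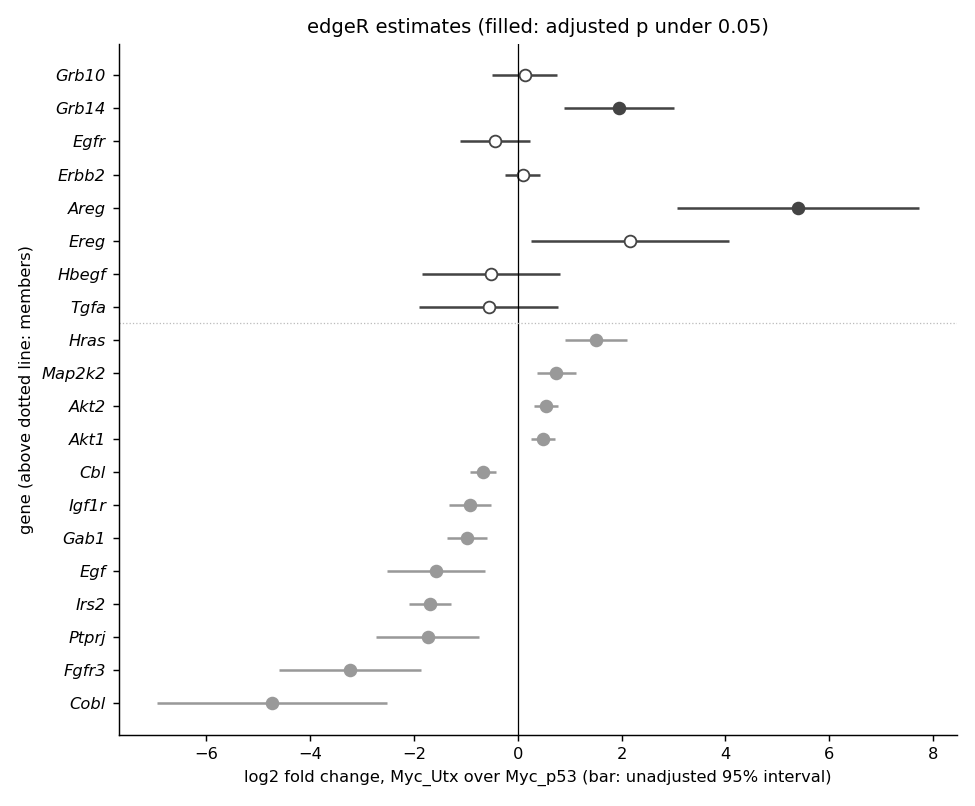
edgeR log2 fold changes, Myc_Utx over Myc_p53, with unadjusted 95% intervals for the 8 tested members other than Grb7 (above the dotted line) and the 12 pathway genes past the test (below it), where filled points have an adjusted p under 0.05. Areg at 5.40 and Grb14 at 1.96 are the filled members, and the pathway genes run from -4.75 for Cobl to 1.50 for Hras.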

How the data were processed

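RNA-seq libraries of 6 mouse liver tumour lines, 3 labelled Myc_Utx and 3 labelled Myc_p53, were analysed from 1 table of raw read counts per Ensembl gene that the authors deposited. Per the labels, the submitters' processing notes name Trimmomatic 0.36, STAR 2.5.3a, featureCounts 1.6.3 and DESeq2 1.20.0 with GRCm38, while the paper's methods name another counter, a human build and an Mll3 guide in place of the Utx label, and the labels were followed. The table holds mouse Ensembl identifiers, and 95.9% of its rows, 9 of the 10 members among them, had the gene bounds of GENCODE M21. The strand setting is not given in the sources used here. The transcript length column was used for levels per kilobase.

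Counts were tested with edgeR 4.0.16 in R 4.3.3 (filterByExpr with a minimum count of 10, TMM, quasi-likelihood F test, group as the only term), and p-values were adjusted over all 11510 genes tested by the Benjamini-Hochberg method with a threshold of 0.05. Intervals are the estimate ± the t quantile times SE at the fit's degrees of freedom. On simulated counts with 196 tested genes changed by 2 on the log2 scale, 74% were recovered and 3.97% of calls were false. Alternatives were no filter, at least 10 counts in every line, DESeq2 size factors, total counts, DESeq2 1.42.0, transcript length as an offset (no GC content was used), and leaving out each line. A floor of 3 counts per library served genes without counts and covers counting error only. Motifs and start sites came from RefSeq windows of 250 bases before and 50 after the start. Markers, gene lists and members were chosen with earlier results of these data known.

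The text names all members, Kdm6a and Trp53, the other ERBB receptor and ligands, called genes of each pathway list, protein-coding genes starting within 100 kb of Grb7, the 5 genes without counts in Myc_Utx that were highest in Myc_p53, and the 5 most correlated with Grb7. Marker genes, Dusp6, Etv4 and Adam17 were named after their values were seen.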

Additional observations from a re-analysis of the deposited data

How the results depend on the processing

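The counts over the table, the members and the pathway were recomputed under 6 alternatives with every line and 6 fits without 1 line. Areg, Ereg, Egf and Cobl had 5 of the 6, since requiring 10 counts in every line removed them, and the Grb7 bound was recomputed with total counts and without each Myc_p53 line. DESeq2's Wald test gave 1268 higher and 1514 lower genes over the table against 805 and 885, and 9 higher and 23 lower pathway genes against 4 and 8. Transcript length as an offset left 4 lower pathway genes, and requiring 10 counts in every line left 1 higher member, because Areg was removed. Without 1 line, the table held 3 to 836 higher and 1 to 1118 lower genes, the members other than Grb7 held 0 to 1 higher and 0 to 1 lower, and the pathway held 0 to 5 higher and 0 to 14 lower. The highest counts came without Myc_p53 2 and the lowest without Myc_Utx 2A, with 3 and 1 genes over the table, and the pathway held 1 lower gene without Myc_p53 3. The bound on Grb7 was 54.6-fold with total counts and 30.0-fold to 73.3-fold without 1 Myc_p53 line.

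Of the single genes, those that changed direction without 1 line were Grb10 (-0.10 to 0.33, below 0 without Myc_Utx 2D and, at -0.04, without Myc_p53 2), Hbegf (-0.94 to 0.16, above 0 without Myc_p53 3) and Nrg1 (-0.27 to 0.85, below 0 without Myc_Utx 2B and, at -0.07, without Myc_p53 2), and these did not pass the test with all lines. For single genes, 244 values kept their direction and side of the threshold, 67 lost and 4 gained the call. Over all genes, the median log2 fold change was -0.08 to 0.03 under the other scalings and -0.24 with no filter. No paired analysis was possible because the groups share no replicate numbers. With 3 lines a group, libraries of 4656103 to 6937497 counts and a biological coefficient of variation of 33.4%, small changes in low genes such as Erbb3 were not detectable.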
